A study of Mus musculus with 6 samples.

Results

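The genes described here are the G protein-coupled receptor genes of mouse epididymal fat, chosen by name: every gene whose symbol begins with Gpr and a number, Gprc5, Adgr, P2ry, S1pr, Lpar, Ptger, Htr and a number, Adra1, Adra2, Ffar, Hcar or Adora, apart from Adgre1. The rule found 129 genes among the 18193 that the array names singly. Each gene was read from its brightest probe set, and 70 of the 129 were bright enough to be tested. Htr3a and Htr3b fall under the rule but encode ligand-gated ion channels, Gpr137b-ps is a pseudogene, and some Gpr genes encode membrane proteins of the Golgi or lysosome whose coupling to G proteins is not settled.

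The tissue was whole epididymal white fat of C57BL/6 mice aged 8 weeks, with 1 Affymetrix array for each of 6 mice. The 3 WT mice were wild type, and the labels do not say whether they carried floxed alleles or Cre. The 3 CNOT3KO mice lacked Cnot3 in cells with Cre recombinase driven by the promoter of adiponectin, an adipocyte hormone, so the other cells of the fat pad kept the gene. CNOT3 is a core subunit of CCR4-NOT, a deadenylase complex that starts mRNA decay, and the comparison asked which fat pad mRNAs change when adipocytes lose it. The Cnot3 probe set used here read 306, 293 and 305 in WT and 194, 229 and 179 in CNOT3KO, while a dimmer Cnot3 probe set gave overlapping groups (220 to 314 against 199.7 to 243).

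G protein-coupled receptors cross the cell membrane several times, bind a ligand outside the cell and switch on heterotrimeric G proteins inside it. In fat, receptors coupled to inhibitory G proteins restrain lipolysis by lowering cyclic AMP, and receptors coupled to Gq raise calcium. Endothelial cells carry sphingosine 1-phosphate and adhesion receptors that keep vessels sealed, and macrophages carry receptors for nucleotides, protons, lipids and oxysterols.

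The upstream sequences of the members with the largest calls are shown so that the start regions of genes that rose and genes that fell can be compared. They are the 250 bases before the annotated start, from RefSeq on GRCm38.p6, for the 2 largest rises and the 2 largest falls among called members with 1 listed start. Capitals mark the 6-base strings AGGAAG, known as the core bound by ETS family factors, TATAAA, known as the TATA box, and GGGCGG, known as the GC box, each searched on either strand. Gpr176, a receptor linked to the brain clock, rose and lies on the minus strand at chr2:118373420-118373669. Gpr183, a receptor for oxysterols, rose and lies on the minus strand at chr14:121965194-121965443. Adgrl4, an endothelial adhesion receptor, fell and lies on the plus strand at chr3:151437632-151437881. Ffar4, a receptor for long-chain fatty acids, fell and lies on the plus strand at chr19:38096829-38097078.
Gpr176: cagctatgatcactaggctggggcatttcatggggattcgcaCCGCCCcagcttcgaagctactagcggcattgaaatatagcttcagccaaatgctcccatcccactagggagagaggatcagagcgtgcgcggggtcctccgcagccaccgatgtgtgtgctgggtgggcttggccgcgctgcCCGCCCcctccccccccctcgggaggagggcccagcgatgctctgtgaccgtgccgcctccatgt
Gpr183: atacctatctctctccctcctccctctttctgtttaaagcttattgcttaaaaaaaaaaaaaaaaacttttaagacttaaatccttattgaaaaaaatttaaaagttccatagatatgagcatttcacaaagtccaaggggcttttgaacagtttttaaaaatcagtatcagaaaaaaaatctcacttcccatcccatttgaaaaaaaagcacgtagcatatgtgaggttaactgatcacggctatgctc
Adgrl4: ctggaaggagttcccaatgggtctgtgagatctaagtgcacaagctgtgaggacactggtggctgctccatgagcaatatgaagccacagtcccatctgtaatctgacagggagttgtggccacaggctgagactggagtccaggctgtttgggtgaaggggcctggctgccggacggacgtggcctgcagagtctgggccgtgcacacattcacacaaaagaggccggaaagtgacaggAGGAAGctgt
Ffar4: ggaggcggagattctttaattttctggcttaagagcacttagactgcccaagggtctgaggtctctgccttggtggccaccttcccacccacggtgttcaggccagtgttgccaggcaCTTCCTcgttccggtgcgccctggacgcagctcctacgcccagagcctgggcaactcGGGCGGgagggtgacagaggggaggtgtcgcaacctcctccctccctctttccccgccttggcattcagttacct

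The 4 sequences differ in base composition. Their GC content was 64.0% for Gpr176, 32.0% for Gpr183, 56.8% for Adgrl4 and 61.2% for Ffar4. Gpr176 held 2 GC boxes, Ffar4 held 1 GC box and 1 AGGAAG, Adgrl4 held 1 AGGAAG, and none of the 3 strings occurred in the 250 bases of Gpr183. Of the 129 members, 101 had an entry in the promoter table. Some genes had more than 1 promoter: 10 of the genes that rose had 15, and 11 of those that fell had 12. AGGAAG occurred in 4 of 15 promoters of genes that rose (3 genes) and 4 of 12 promoters of genes that fell (4 genes). Of all 32851 promoters of that length, 29.5% held it. TATAAA occurred in 3 of 15 and 0 of 12, against 12.4% of all promoters, and GGGCGG in 4 of 15 and 6 of 12, against 32.7%. These counts are a description of letters and were not tested.

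Receptor genes changed in both directions in the knockout fat pad. By limma with Benjamini-Hochberg adjustment over all 12769 tested genes, 14 of the 70 tested receptor genes were higher in CNOT3KO, 14 were lower and 42 did not pass an adjusted p of 0.05. The share called was 40% of receptor genes, against 40.1% of all tested genes, so receptor genes were called about as often as other genes. By direction, 20.0% of receptor genes were higher, against 23.2% of all tested genes, and 20.0% were lower, against 16.9%. With arrays centred on the median of tested genes, 13 receptor genes were higher and 18 lower, and over all genes the higher share of calls went from 57.9% to 45.3%. The median log2 difference, CNOT3KO minus WT, was -0.03 over receptor genes and 0.02 over all tested genes. The groups lay apart, with every CNOT3KO array on one side of every WT array, in 34 of 70 receptor genes (48.6%), against 51.7% of all tested genes. They lay above in 15, against 29% of all tested genes, and below in 19, against 22.7%. In the plot of receptor classes, calls were falls alone among adhesion receptors (6 of 13 tested) and fatty acid and metabolite receptors (2 of 4). They were rises alone among P2Y receptors (3 of 8). The lysophosphatidic acid, prostaglandin E2 and proton-sensing classes also held a rise and no fall, with 1 call each. Whether classes differed from one another was not tested.

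**Figure D1:**
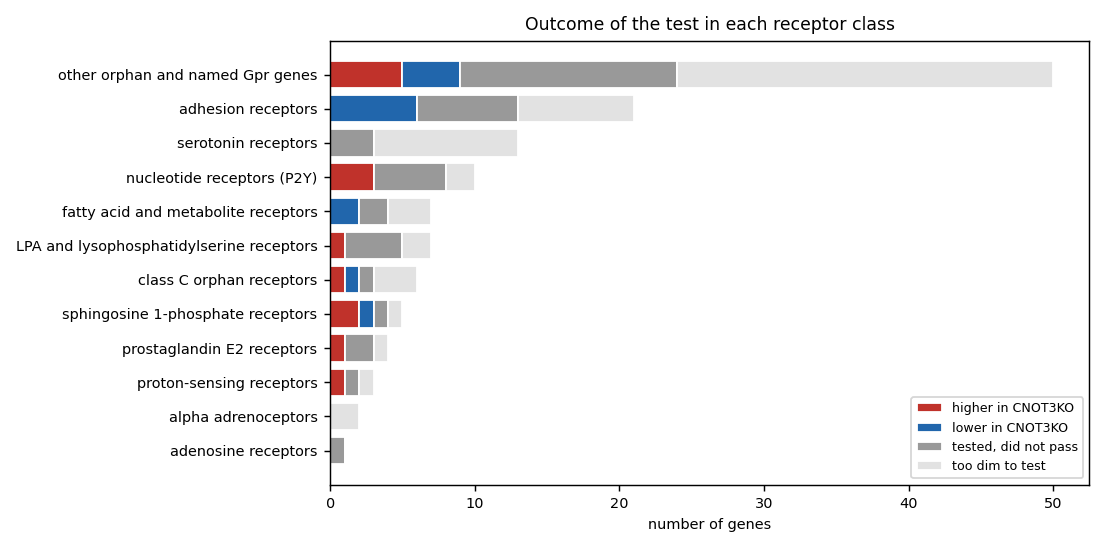
Number of receptor genes in each class, split into genes higher in CNOT3KO, genes lower in CNOT3KO, tested genes that did not pass and genes too dim to test. Adhesion receptors held 6 lower and 0 higher genes, P2Y receptors 3 higher and 0 lower, and serotonin receptors were mostly too dim, with 10 of 13 not tested.

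Adhesion receptors, which have long extracellular parts that bind matrix and neighbouring cells, held the steepest falls. Of 13 tested, 6 fell, 0 rose and 7 did not pass. Adgrf5, a receptor of lung epithelium and of endothelium, read 6431, 7725 and 7685 in WT and 2198, 2835 and 2529 in CNOT3KO. Every knockout value was below every WT value, and the fold on the log2(signal + 22.5) scale used throughout was 0.348 (log2 -1.52, SE 0.12, limma adjusted p = 3.35e-05). Adgrl4 read 1678, 1586 and 1441 in WT and 509, 527 and 578 in CNOT3KO, again with the groups far apart (log2 -1.50, SE 0.11, limma adjusted p = 2.12e-05). Both genes also fell by their other probe set, at log2 -1.54 for Adgrf5 and -1.70 for Adgrl4.

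The other falls among adhesion receptors were smaller. Adgrg2, an orphan adhesion receptor known from the epididymal duct, read 2293, 3180 and 3009 in WT and 2011, 1202 and 1402 in CNOT3KO (log2 -0.89, limma adjusted p = 0.00524). The epididymis markers looked for were not tested because their probe sets were too dim, with sums of 100 to 111 in WT and 51.3 to 106 in CNOT3KO. Adgra3 had WT values of 738 to 812 and CNOT3KO values of 533 to 556, a log2 difference of -0.49, which was -0.26 and not called when its probe sets were averaged. Adgre5 (CD97), found on leukocytes, read 2054 to 2749 in WT and 1549 to 1822 in CNOT3KO (log2 -0.43). That call was gone without WT mouse 3 (-0.31), CNOT3KO mouse 1 (-0.45) or CNOT3KO mouse 3 (-0.36). Adgre4, a relative of the macrophage marker Adgre1, read 196 to 218 in WT and 106 to 155 in CNOT3KO (log2 -0.55), a call that went when WT mouse 1, 2 or 3 (-0.58 to -0.51) or CNOT3KO mouse 3 (-0.40) was left out. The 7 tested adhesion receptors that did not pass had log2 differences from -0.34 (Adgrl1) to 0.34 (Adgrl2). Adgrl1 was called lower by its dimmer probe set (log2 -0.53), and 8 adhesion genes were too dim to test, with single values between 1 and 69.7.

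**Figure D2:**
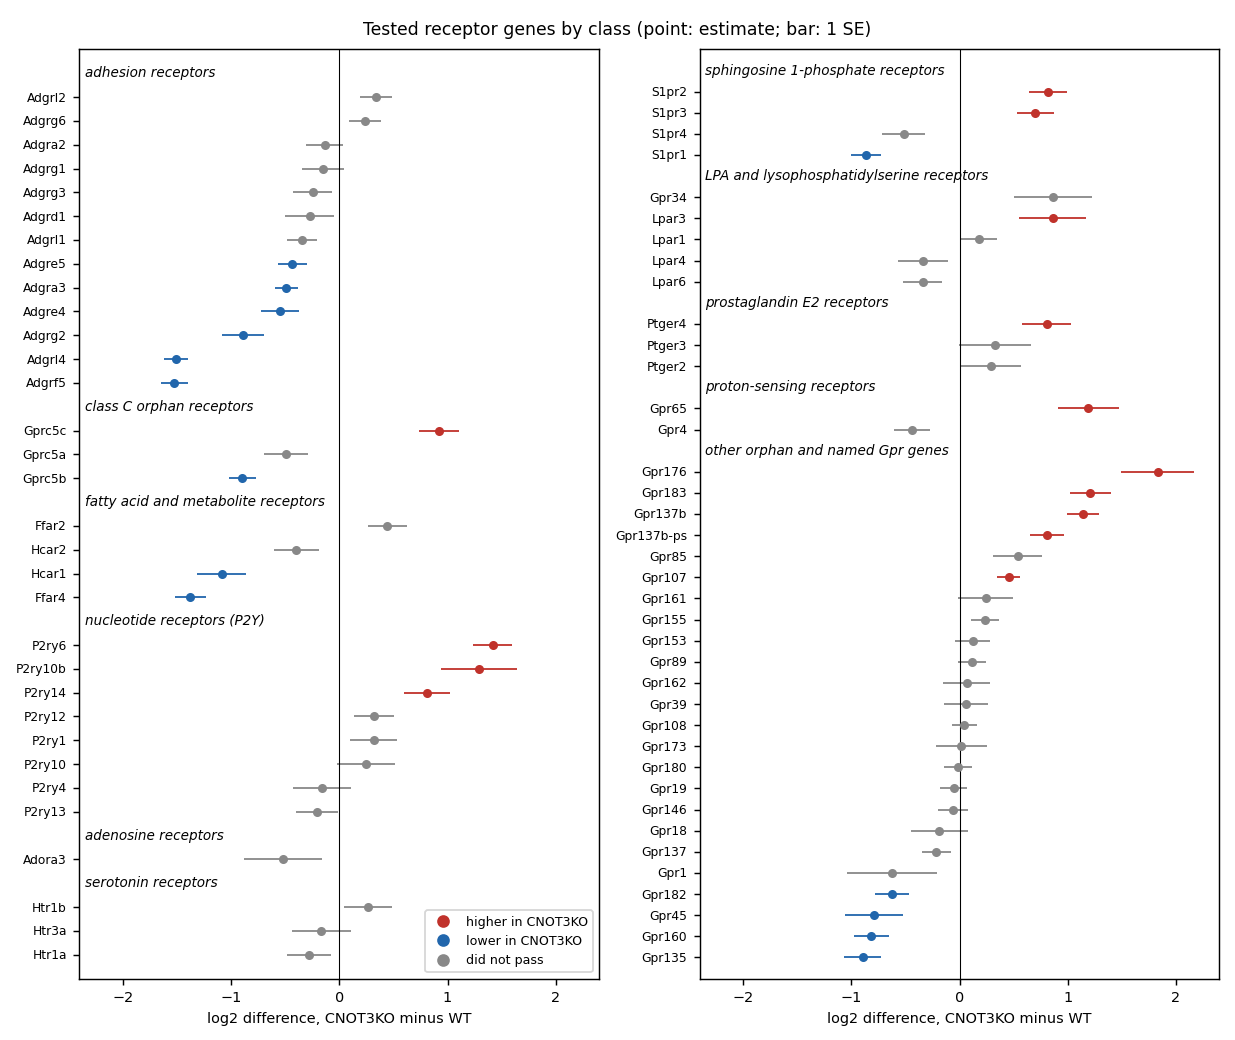
Log2 difference between CNOT3KO and WT for the 70 tested receptor genes, ordered by size within each class; points are limma estimates and bars 1 SE, coloured by call. Adgrf5 and Adgrl4 lie farthest to the left (-1.52 and -1.50) and Gpr176 farthest to the right (1.83), and the 3 tested serotonin receptor genes lie between -0.28 and 0.26.

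Receptors for fatty acids and metabolites link circulating fuels to fat cell function. Of the 4 tested, 2 fell and 2 did not pass. Ffar4 read 1192, 1271 and 1393 in WT and 517, 393 and 545 in CNOT3KO. Every knockout value was below every WT value, and the fold was 0.386 (log2 -1.38, SE 0.14, limma adjusted p = 9.96e-05). Hcar1, the lactate receptor that restrains lipolysis in adipocytes, read 847, 1190 and 1679 in WT and 495, 489 and 685 in CNOT3KO. The WT values were widely spread but did not overlap the knockout values (log2 -1.09, SE 0.23, limma adjusted p = 0.00469).

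The other tested members of that class, Hcar2 and Ffar2, overlapped between groups. Hcar2, the niacin and ketone body receptor and the gene next to Hcar1 on chromosome 5, read 362, 483 and 642 in WT and 392, 294 and 409.5 in CNOT3KO. Its log2 difference of -0.40 did not pass (limma adjusted p = 0.156), although it passed without WT mouse 1 (-0.59). Ffar2, a receptor for short-chain fatty acids, read 1457, 1608 and 2277 in WT and 2308, 2024 and 2910 in CNOT3KO, with a log2 difference of 0.44 that did not pass (limma adjusted p = 0.0801). Ffar2 passed without WT mouse 3 (0.63) or CNOT3KO mouse 2 (0.56), with array weights (0.43) and with the mouse number as a block. Gpr31b, Gpr35 and Gpr84, the last a receptor for medium-chain fatty acids on myeloid cells, were too dim to test, with values between 6.77 and 64.5. Gpr84 read 25.6, 35.0 and 57.6 in WT and 6.77, 17.8 and 38.15 in CNOT3KO, with overlap, while the knockout values of Gpr31b and Gpr35 lay above all their WT values.

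Adipocyte markers gave context for those fatty acid and metabolite receptors that act in fat cells, such as Hcar1. The summed signal of 11 such markers was 160300 to 201400 in WT and 139700 to 168000 in CNOT3KO, and the ranges overlapped. In that list 4 genes fell (Lep, Plin4, Cidec and Aqp7) and 7, Adipoq among them, did not pass. In whole tissue, fewer cells of a type and less mRNA in each cell cannot be told apart.

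P2Y receptors bind nucleotides released from stressed or dying cells, and 3 of the 8 tested rose while 5 did not pass. P2ry6, the UDP receptor that promotes uptake of debris by phagocytes, read 362, 248 and 403 in WT and 883, 1073 and 829 in CNOT3KO. All knockout values were above all WT values, and the fold was 2.67 (log2 1.42, SE 0.18, limma adjusted p = 0.000311). P2ry14, the receptor for UDP-glucose, read 134, 132 and 85.8 in WT and 252, 244.5 and 171 in CNOT3KO (log2 0.81, limma adjusted p = 0.0129), and lost its call without CNOT3KO mouse 1 (0.72).

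P2ry10b was dim in WT, where it read 37.0, 47.5 and 11.4, against 85.5, 175 and 74.5 in CNOT3KO. The groups lay apart (log2 1.29, SE 0.35, limma adjusted p = 0.0161), but the size depended on the offset, from 1.88 with an offset of 1 to 0.71 with the overall median. The call was lost without CNOT3KO mouse 2 (0.97). Its neighbour on the X chromosome and close relative P2ry10 gave overlapping groups (log2 0.24), and how far the probes of these relatives share targets was not analysed here. P2ry12 and P2ry13, receptors for ADP that lie near P2ry14 on chromosome 3, had log2 differences of 0.32 and -0.21 and did not pass. P2ry12 read 95.1, 86.7 and 90.2 in WT and 129.8, 134 and 95.7 in CNOT3KO, without overlap, and passed with array weights (0.42). P2ry13 read 88.3, 74.1 and 100 in WT and 70.1, 71.7 and 75.3 in CNOT3KO, with overlap. Gpr17 and P2ry2 were too dim to test.

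Receptors for sphingosine 1-phosphate, a lipid that holds endothelium together and guides lymphocytes, went in opposite directions. S1pr1, the main receptor of endothelial cells and lymphocytes, read 729, 549 and 701 in WT and 341, 338 and 369 in CNOT3KO. It fell to 0.549 of WT with no overlap (log2 -0.87, SE 0.14, limma adjusted p = 0.00100). S1pr2, which couples to G12 and G13 proteins, read 174, 208 and 247 in WT and 352, 467 and 342 in CNOT3KO, and rose 1.76-fold (log2 0.82, limma adjusted p = 0.00493). S1pr3, found on smooth muscle and other cells, read 761, 895 and 1243 in WT and 1552, 1735 and 1384 in CNOT3KO, and rose 1.62-fold (log2 0.70, limma adjusted p = 0.0103). S1pr2 and S1pr3 were also called higher by their dimmer probe sets (log2 0.55 and 0.78). S1pr4, a receptor of leukocytes, read 148, 142 and 128 in WT and 87.6, 69.8 and 119 in CNOT3KO. Its groups were apart, but its log2 difference of -0.52 did not pass (limma adjusted p = 0.0677). S1pr4 passed under 5 alternatives at the same threshold, among them centring on the median of tested genes (-0.61) and leaving out CNOT3KO mouse 3 (-0.68). S1pr5 was too dim to test, at 1.53 to 3.28.

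**Figure D3:**
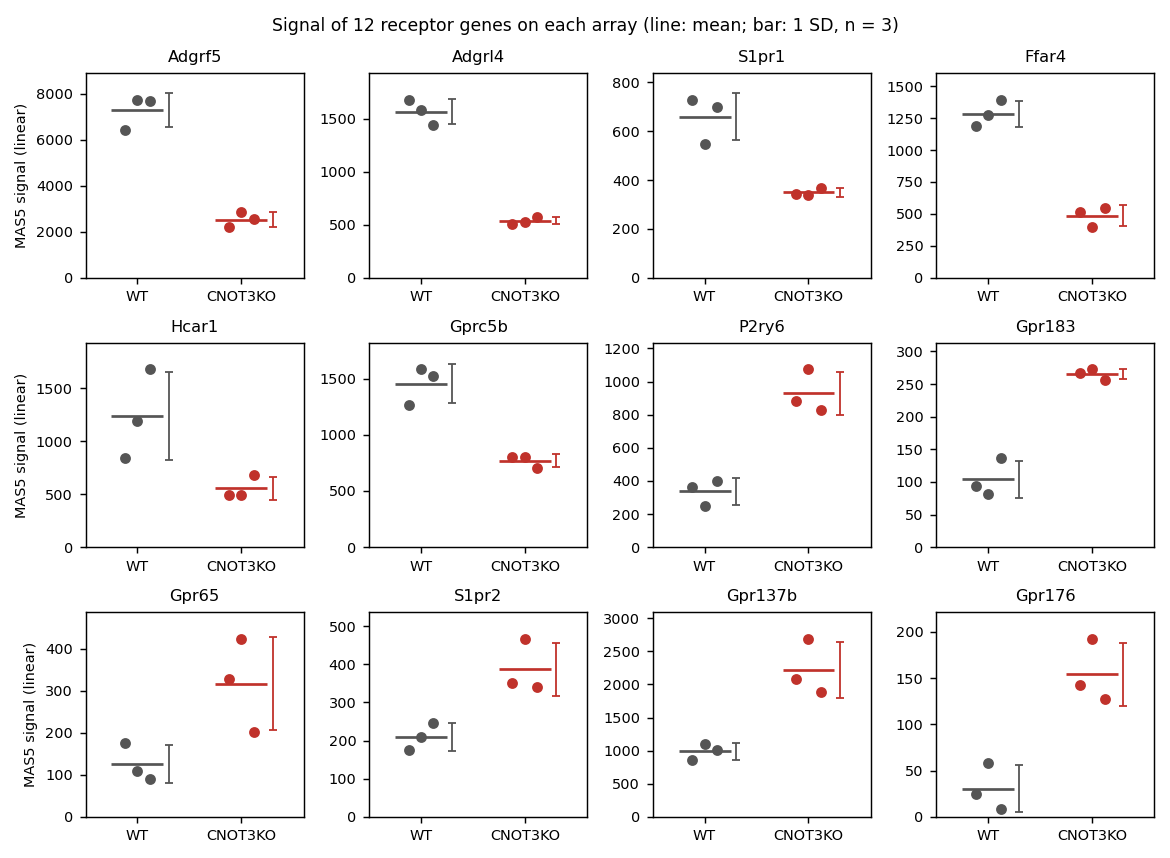
MAS5 signal of 12 receptor genes on each array, WT in grey and CNOT3KO in red; dots are mice, horizontal lines group means and side bars 1 SD (n = 3). In each panel the groups do not overlap: the 6 genes from Adgrf5 to Gprc5b lie lower in CNOT3KO and the 6 from P2ry6 to Gpr176 lie higher, with Gpr65 between 201 and 423 in CNOT3KO and between 89.3 and 176 in WT.

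Lysophosphatidic acid receptors, which respond to a growth-promoting lipid made by the adipocyte enzyme autotaxin, showed 1 borderline call. Lpar3 read 32.8, 75.2 and 21.6 in WT and 93.9, 107 and 72.0 in CNOT3KO, with 1 WT value above the lowest knockout value (log2 0.86, limma adjusted p = 0.0495). The call was lost without WT mouse 1 (0.78) or 3 (0.61), without any 1 of the CNOT3KO mice (0.76 to 0.98), and under 4 processing choices. Lpar1, Lpar4 and Lpar6 had log2 differences of 0.18, -0.34 and -0.34 and did not pass. Lpar6, the brightest of the class, read 2426, 2163 and 1634 in WT and 1630.0, 1295 and 1987 in CNOT3KO. Lpar1 read 305, 301 and 369 in WT and 350.4, 464 and 307 in CNOT3KO, and in both genes the groups overlapped. Lpar4 passed without CNOT3KO mouse 2 (-0.61), and Lpar6 with array weights (-0.36). Gpr34, the lysophosphatidylserine receptor of macrophages and microglia, read 217, 146 and 156 in WT and 439.8, 510.4 and 154 in CNOT3KO, so that CNOT3KO mouse 3 lay among the WT values. Its log2 difference of 0.86 did not pass (limma adjusted p = 0.0856), but was called without CNOT3KO mouse 3 (1.36) and with array weights (1.23). Gpr174 and Lpar2 were too dim to test.

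Among prostaglandin E2 receptors, Ptger4 rose and the others did not pass. Ptger4, a receptor that raises cyclic AMP and is found on macrophages, read 411, 397 and 732 in WT and 936, 1001 and 722 in CNOT3KO. WT mouse 3 lay above CNOT3KO mouse 3, and the log2 difference was 0.80 (SE 0.22, limma adjusted p = 0.0176). The call was lost without WT mouse 1 (0.68) or 2 (0.66), without CNOT3KO mouse 1 (0.76) or 2 (0.71), and with the mean of its probe sets (0.49). Ptger3, the receptor that restrains lipolysis in adipocytes, had the widest spread in WT, at 4940, 2415 and 1558, against 3841, 3437 and 2792 in CNOT3KO. It gave no call with all mice (log2 0.33, limma adjusted p = 0.474) and was called higher without WT mouse 1 (0.77). Ptger2 read 180 to 318 in WT and 200.4 to 420.1 in CNOT3KO and did not pass, and Ptger1 was too dim to test.

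Of the proton-sensing receptors, 1 of the 2 tested rose. Gpr65, which raises cyclic AMP in leukocytes at acid pH, read 176, 110 and 89.3 in WT and 328, 423 and 201 in CNOT3KO. The groups did not overlap and the fold was 2.28 (log2 1.19, SE 0.28, limma adjusted p = 0.00832). Gpr4, a proton sensor of endothelium, read 145, 150.0 and 189 in WT and 111, 111 and 115 in CNOT3KO. Its groups lay apart in the other direction, and the log2 difference of -0.44 did not pass (limma adjusted p = 0.0639), although it did when arrays were centred on median signal (-0.53) or by ribosomal protein genes (-0.51). Gpr132 was too dim to test.

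Class C orphan receptors of the Gprc5 family, which are induced by retinoic acid, held 1 rise and 1 fall. Gprc5b, which has been linked to insulin signalling in fat, read 1261, 1581 and 1524 in WT and 801, 802 and 706 in CNOT3KO, and fell to 0.538 of WT (log2 -0.90, SE 0.12, limma adjusted p = 0.000444). Its other probe set gave -0.63, also called. Gprc5c read 127, 84.4 and 124 in WT and 223, 254 and 213 in CNOT3KO, and rose 1.89-fold (log2 0.92, limma adjusted p = 0.00339). The dimmer Gprc5c probe set was not called (log2 0.41, limma adjusted p = 0.117). Gprc5a had a log2 difference of -0.49 and overlapping groups (limma adjusted p = 0.0823). It passed without CNOT3KO mouse 2 (-0.70), with array weights (-0.72) and with centring on the median of tested genes (-0.59). Gprc5d, Gpr158 and Gpr179 were too dim to test.

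Of the remaining Gpr genes, 24 of 50 were tested, 5 rose, 4 fell and 15 did not pass. Gpr176 showed the steepest rise of all receptor genes. It read 24.6, 58.7 and 8.27 in WT and 143, 192 and 127 in CNOT3KO, without overlap (log2 1.83, SE 0.34, limma adjusted p = 0.00231). Because WT values were dim, its log2 difference ranged from 1.04 with an offset equal to the overall median to 2.66 with an offset of 1, and was called at both.

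Gpr183, which guides immune cells along oxysterol gradients, read 93.8, 81.5 and 137 in WT and 267, 272 and 256 in CNOT3KO, a rise of 2.31-fold (log2 1.21, SE 0.19, limma adjusted p = 0.000876). The dimmer Gpr183 probe set gave overlapping groups and no call (log2 0.09, limma adjusted p = 0.78). Gpr137b, a lysosomal membrane protein that acts in nutrient signalling, read 853, 1107 and 1002 in WT and 2079, 2687 and 1882 in CNOT3KO, a rise of 2.20-fold (log2 1.14, SE 0.15, limma adjusted p = 0.000392). Its related pseudogene Gpr137b-ps was also called higher, at 1118, 1280.0 and 1253 in WT and 2340.0, 2521 and 1671 in CNOT3KO (log2 0.81). The probe sets of both carry suffixes that mark possible cross-hybridisation and 4 further probe sets name both genes, so the rise cannot be divided between them. Gpr107, a protein of the Golgi, read 544 to 613 in WT and 806 to 821 in CNOT3KO (log2 0.45), which was 0.16 and not called with the mean of its probe sets. Its second brightest probe set was also called higher (log2 0.53), and the dimmer tested ones were not called (log2 -0.0047 and 0.12).

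The falls among these genes were moderate. Gpr135, an orphan receptor, read 399, 590.1 and 452 in WT and 242, 287 and 209.9 in CNOT3KO (log2 -0.90, limma adjusted p = 0.00305), and its other probe set also fell (-0.94). Gpr160, an orphan receptor, read 901, 847 and 907 in WT and 489, 627 and 391 in CNOT3KO (log2 -0.81, limma adjusted p = 0.00327). Gpr182, a chemokine-scavenging receptor of endothelium, read 314, 310.2 and 258 in WT and 199.5, 153 and 196 in CNOT3KO (log2 -0.63, limma adjusted p = 0.0110). Gpr45 was dim, at 101, 71.7 and 97.7 in WT and 69.7, 34.2 and 29.5 in CNOT3KO, and its call (log2 -0.79, limma adjusted p = 0.0414) was lost when WT mouse 1, 2 or 3 was left out (-0.91 to -0.72), without CNOT3KO mouse 2 (-0.69) or 3 (-0.63), and under 4 processing choices.

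Several further genes did not pass. Gpr180 read 1388 to 1479 in WT and 1246 to 1711 in CNOT3KO (log2 -0.01). Gpr146, a receptor linked to plasma cholesterol, gave a log2 difference of -0.06 by its brightest probe set, while its second probe set was called higher, at 414 to 475 in WT and 737 to 1009 in CNOT3KO (log2 0.92, limma adjusted p = 0.00108). Its dimmer probe sets were not called (log2 0.14 and -0.14), so whether Gpr146 was called depends on the probe set. Gpr108, Gpr19, Gpr89 and Gpr39 had log2 differences between -0.05 and 0.11 and did not pass. Gpr85 passed without CNOT3KO mouse 3 (log2 0.70, against 0.54 with all mice), with array weights (0.79) and with quantile normalization (0.62). Gpr1, a receptor of chemerin, passed without CNOT3KO mouse 2 (-1.10, against -0.62). The other 26 genes were too dim to test, with single values between 1 and 96.6.

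Receptors for monoamines and adenosine gave no call. Of 13 serotonin receptor genes, 3 were tested (Htr1a, Htr1b and the ion channel gene Htr3a), with log2 differences from -0.28 to 0.26, and 10 were too dim. Htr3a, the brightest of them, read 94.6, 126 and 108 in WT and 87.5, 60.3 and 155 in CNOT3KO, with overlap. Adra1b and Adra2c, the alpha adrenoceptors found by the rule, were too dim, with values between 27.5 and 67.1. Adra1b, the brighter, read 57.15, 49.8 and 36.65 in WT and 46.6, 67.1 and 50.9 in CNOT3KO. Adora3 was the adenosine receptor found, at 96.0, 75.9 and 65.4 in WT and 62.6, 15.9 and 84.1 in CNOT3KO, and did not pass (log2 -0.52, limma adjusted p = 0.281). Among all 59 receptor genes too dim to test, the knockout arrays lay entirely above WT in 6 and entirely below in 4. This count was not made over the 5424 genes of the whole array that were too dim, so it cannot be read as particular to receptor genes. At the edge of the filter of 51.6 lay Adra1b (mean signal 51.4) and Gpr132 (51.4) outside and Gpr18 (52.2) inside.

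Lists of genes that act with the receptors are read against all tested genes, of which 23.2% rose and 16.9% fell, and no list was tested as a whole. Of 24 tested G protein subunit genes, 2 rose, 7 fell and 15 did not pass (median log2 -0.27). Gnaq, which carries signals of Gq-coupled receptors, read 3403, 3912 and 4025 in WT and 1809, 2012 and 1918 in CNOT3KO, and fell to 0.510 of WT (log2 -0.97, SE 0.11, limma adjusted p = 0.000131). Its close relative Gna11 fell by 0.65 on the log2 scale, and the gamma subunit Gng11 fell to 0.540 of WT. Gna15, a promiscuous alpha subunit of blood cells, rose from 14.6 to 41.3 in WT to 71.2 to 79.1 in CNOT3KO (log2 0.93), and lost its call without any 1 of the CNOT3KO mice (0.91 to 0.97). Gnas, the stimulatory subunit, read 10930 to 13240 in WT and 9499 to 10450 in CNOT3KO, with no overlap, and did not pass (log2 -0.29, limma adjusted p = 0.0536), but passed under 7 alternatives, among them leaving out WT mouse 1 (-0.36).

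RGS proteins speed the shutdown of G proteins. The list also held the G protein modulators Gpsm1, Gpsm2 and Gpsm3. Of 18 tested, 9 rose, Gpsm2 and Gpsm3 among them, 3 fell and 6 did not pass (median log2 0.46, against 0.02 over all tested genes). Rgs1, a regulator known from leukocytes, read 62.4, 50.7 and 92.4 in WT and 1208, 1543 and 936 in CNOT3KO, and rose 13.7-fold (log2 3.78, SE 0.22, limma adjusted p = 7.51e-06). Rgs18 rose 3.14-fold and Rgs10 2.46-fold. Rgs5, also among the pericyte markers, fell to 0.408 of WT and Rgs4 to 0.492. Of 8 tested receptor kinases and arrestins 2 rose and 2 fell, with Arrb2, an arrestin that ends receptor signalling, at 1.79-fold and Arrdc3, an arrestin-like protein that acts on adrenergic receptors, at 0.465 of WT.

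**Figure D4:**
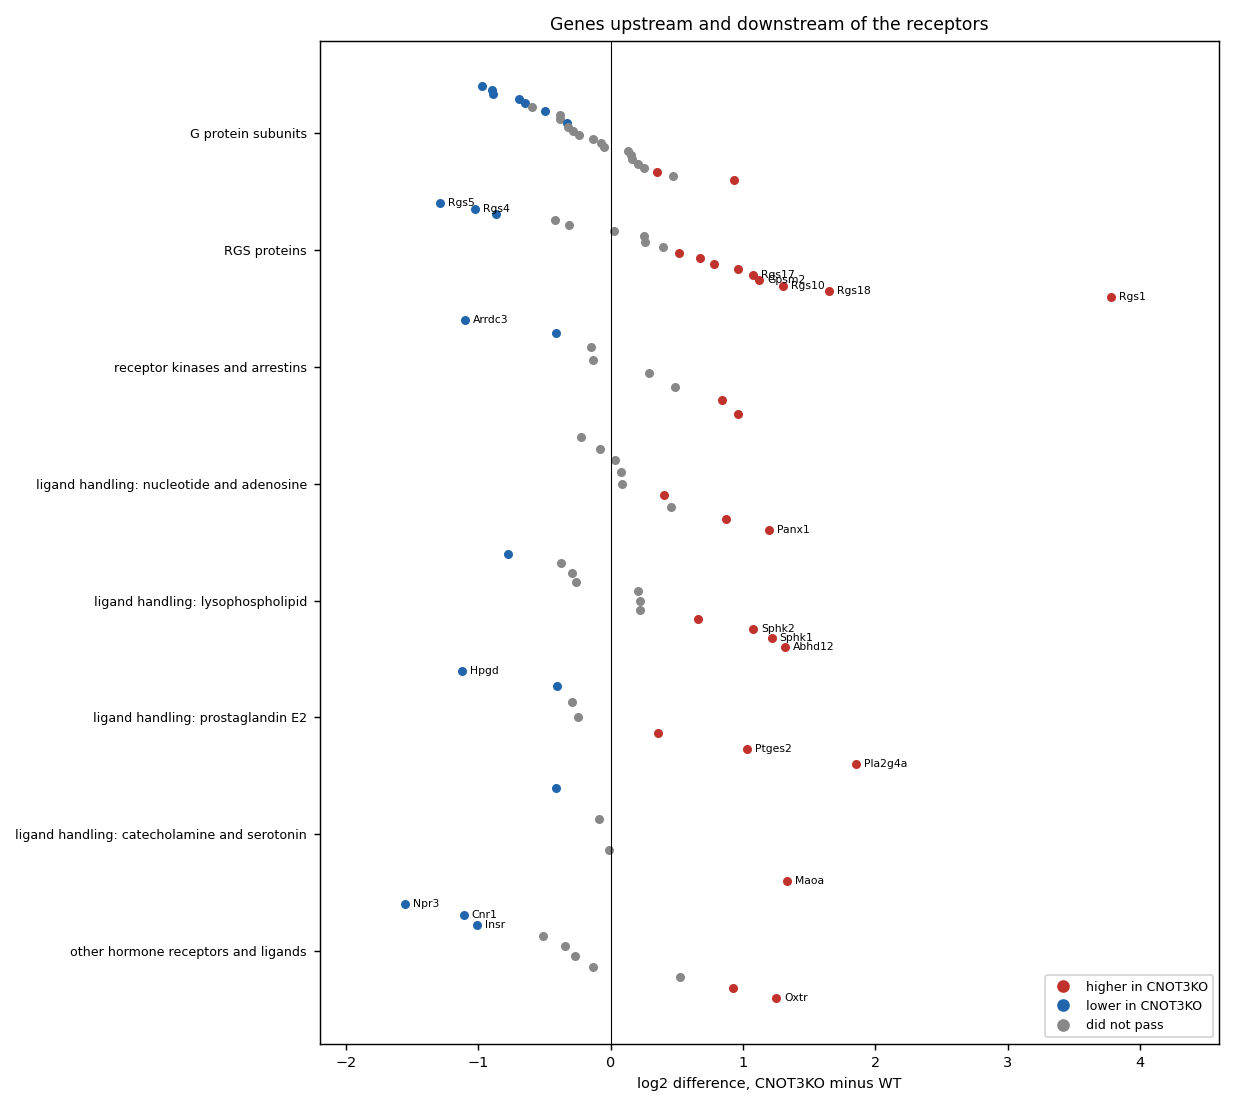
Log2 difference between CNOT3KO and WT for each tested gene of 8 lists upstream or downstream of the receptors; each dot is 1 gene, coloured by call, and called genes that changed by at least 1 on the log2 scale are named. Rgs1 stands far to the right at 3.78, and G protein subunits hold 7 lower and 2 higher genes.

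Enzymes that make or remove the ligands were called in both directions. Of 11 tested lysophospholipid genes 4 rose and 1 fell: the sphingosine kinase Sphk1 rose 2.33-fold, Sphk2 2.11-fold and the lysophosphatidylserine lipase Abhd12 2.50-fold, while Spns2, the endothelial exporter of sphingosine 1-phosphate, fell to 0.583 of WT. The Sphk2 rise had no call from a probe set free of cross-hybridisation suffixes (log2 0.29). Of 7 tested prostaglandin E2 genes 3 rose and 2 fell. Pla2g4a, the phospholipase that releases arachidonic acid, rose 3.61-fold and Hpgd, the prostaglandin-degrading dehydrogenase, fell to 0.458 of WT, with no call from probe sets free of those suffixes (log2 -0.41). Of 9 tested nucleotide and adenosine genes 3 rose, among them the ATP channel Panx1 at 2.30-fold and Ada, adenosine deaminase, at 1.83-fold. Of 4 tested catecholamine and serotonin genes Maoa, a monoamine oxidase, rose 2.52-fold and Maob fell to 0.752 of WT, a call lost without WT mouse 2 (log2 -0.38).

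A mixed list of other hormone receptors and a ligand of fat held 2 rises and 3 falls among 10 tested genes. Npr3, the clearance receptor for natriuretic peptides, fell from 11930 to 15470 in WT to 4381 to 5318 in CNOT3KO (log2 -1.55, limma adjusted p = 3.35e-05). Cnr1, a cannabinoid receptor, fell to 0.463 of WT. Insr, the insulin receptor, fell to 0.496, and lost its call with the mean of its probe sets (log2 -0.41). Oxtr, the oxytocin receptor, rose 2.38-fold and Mc2r, the corticotropin receptor, 1.90-fold.

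Markers of other cell types also differed between the groups. Of 14 macrophage markers 10 rose and 4 (Cd14, Cd163, Timd4 and Cx3cr1) did not pass, and their summed signal was 22860 to 28730 in WT and 48560 to 69320 in CNOT3KO. All 12 endothelial markers fell, with a summed signal of 20730 to 21400 in WT and 7123 to 8242 in CNOT3KO. Smooth muscle and pericyte markers fell in 5 of 8 tested cases and rose in 1, with sums of 15910 to 22450 and 9767 to 12480. Of 5 tested mast cell markers 3 rose and 1, Kit, fell, with sums of 685 to 785 and 900.4 to 1819. None of the markers was listed at 0. How much of the receptor changes belongs to these shifts was not tested.

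The 3 knockout mice were not alike in these measures. The macrophage sum was 61533 in CNOT3KO mouse 1, 69320 in mouse 2 and 48560 in mouse 3, and mouse 3 was the lowest of the knockout mice in 11 of the 15 marker lists, those of progenitor, mesothelial, pericyte, nerve and immune cells among them. It was the highest in the adipocyte and endothelial lists. Its array also had the lowest median signal, 82.09 against 85.85 in CNOT3KO mouse 1 and 87.97 in mouse 2. Among the 14 receptor genes that rose, CNOT3KO mouse 3 had the knockout value nearest to WT in 13, the exception being Gpr107. This count was not made over all genes called higher, so it cannot be read as particular to receptor genes. Among the 14 that fell, the nearest value belonged to mouse 1 in 4, to mouse 2 in 5 and to mouse 3 in 5. Without CNOT3KO mouse 3, 15 receptor genes were called higher and 12 lower. The relation between these orderings was not tested.

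**Figure D5:**
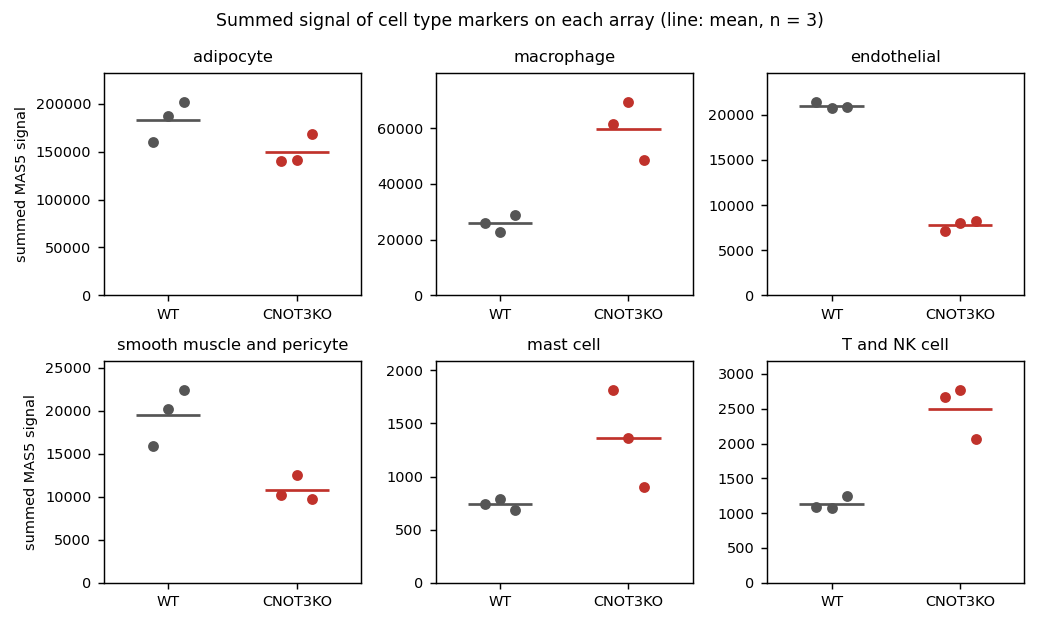
Summed MAS5 signal of the markers of 6 cell types on each array, WT in grey and CNOT3KO in red; dots are mice and lines group means (n = 3). Macrophage sums lie between 48560 and 69320 in CNOT3KO and at most 28730 in WT, endothelial sums lie at most at 8242 in CNOT3KO and at least at 20730 in WT, and adipocyte sums overlap.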

How the data were processed

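Labels name 3 WT and 3 CNOT3KO mice, with cRNA made from 500 ng of total RNA. The authors deposited linear signal intensities, made by MAS5, per the submitters' processing notes; sources used here give no version or scaling target. Trimmed array means agreed within 0.0711%, and array medians were 82.1 to 92.9. The number of arrays limits precision. Each p-value sets the difference between groups against the spread between these mice, which limma moderates over genes.

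Of 45037 probe sets, 34945 named 1 gene in the platform annotation, 932 several and 9160 none here. Entrez numbers of 34741 matched RefSeq (GRCm38.p6), and 0 symbols changed. Each gene was represented by its probe set with the highest mean signal. A mean signal of at least 51.6, the 40th percentile, was required, and 12769 of 18193 genes met it. The test was limma 3.58.1 in R 4.3.3 on log2(signal + 22.5), where 22.5 is the 25th percentile of values, with trended eBayes, two-sided. Calls took an adjusted p under 0.05 (Benjamini-Hochberg, 12769 genes). It was tested on simulated data. Python 3.11.15, pandas 2.3.3, numpy 2.4.6 and matplotlib 3.10.9 were used for tables and plots.

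Members, classes and lists were chosen with earlier results of these data known. Full values were given for the 10 largest rises and falls among called members whose groups do not overlap, for listed receptors, and for the brightest member of each class, passed or not. From the other lists up to 3 called genes each were to be named, and others named were picked with values in view. Alternatives covered offset, filter, normalization, centring, choice of probe set, eBayes settings, array weights, mouse number as a block, threshold and each array left out. Marker lists cover adipocytes, macrophages, blood and lymphatic endothelium, smooth muscle and pericytes, progenitors, mesothelium, T and NK cells, B cells, mast cells, eosinophils, neutrophils, dendritic cells, nerve and epididymis. Of those not described in the report, lymphatic markers held 0 higher and 1 lower of 3 tested, progenitor markers 1 and 1 of 7, mesothelial markers 0 and 4 of 7, T and NK cell markers 2 and 0 of 7, B cell markers 0 and 2 of 4, neutrophil markers 0 and 0 of 3, dendritic cell markers 0 and 0 of 4 and nerve markers 1 and 0 of 3; eosinophil markers were too dim to test.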

Additional observations from a re-analysis of the deposited data

How the results depend on the processing

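Of the 28 called receptor genes, 17 (7 higher and 10 lower) kept their call under all 19 alternatives other than the thresholds. Among these, Gpr137b-ps, Ffar4, Hcar1, P2ry6, Gpr65, S1pr1, Gpr160 and Gpr182 have 1 probe set each. Averaging probe sets, or taking those free of suffixes, left their signals as they were and did not test the choice of probe set. Gpr176 and Gpr137b kept their calls in the 18 alternatives that tested them, and no called receptor gene changed direction under any alternative. At an adjusted p of 0.01, 9 receptor genes were higher and 10 lower, against 1895 and 1249 of all genes. Leaving out each mouse in turn gave 11 to 15 higher and 11 to 16 lower receptor genes, and 2199 to 2676 higher and 1556 to 1978 lower of all genes. The median log2 difference over receptor genes was -0.13 with centring on the median of tested genes, -0.11 with centring on ribosomal protein genes and -0.13 when probe sets free of cross-hybridisation suffixes were used where a gene had one, against -0.03. In that setting 67 genes were tested, and 6 genes with suffixed probe sets alone (Adgra2, Adgrg1, Adgre5, P2ry12, Gpr137b-ps and Gpr108) kept theirs, so it was no test of Gpr137b-ps or Adgre5. With every probe set tested singly, an alternative added after seeing the data, 15 genes had a probe set called higher and 15 one called lower, and without the ion channel genes and the pseudogene, also added, the counts were 13 and 14. The use of probe sets free of cross-hybridisation suffixes turned Gnb1 to -0.28 on the log2 scale (from 0.13) and Grk6 to 0.030 (from -0.42). The mouse number as a replicate block gave 15 higher and 14 lower receptor genes; mice of the same number shared little (correlations of their deviations 0.074, 0.109 and 0.043), so the numbers were not treated as pairs. Signals near the background of dim probe sets limit what can be said of the 59 genes not tested.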
